A study of Mus musculus with 54 samples.

Results

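The DNA replication and mitosis genes followed here are 41 genes that dividing cells switch on to copy their DNA and separate their chromosomes, measured in mouse mammary gland from puberty to the end of involution. Their members were chosen by gene symbol, not by level: every probe set annotated to exactly 1 of the 41 symbols was taken, which gave 54 probe sets of the 12488 on the array. The 41 genes were divided by role into 16 DNA replication genes, 20 genes of mitosis and cytokinesis, and 5 other genes of cycling cells. On these arrays 38 of the 41 were bright enough to be tested, among 7311 features tested in all. Mcm6, a subunit of the replicative helicase, and the mitotic genes Bub1 (a spindle checkpoint kinase) and Tacc3 (a spindle protein) were too dim, with highest time point means of 14.3 for Mcm6, 19.7 for Bub1 and 20.9 for Tacc3 against a brightness limit of 22.8.

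In a cell that enters the division cycle, E2F transcription factors turn on the genes of DNA synthesis at the border of G1 and S phase, and complexes of MYB-like proteins and FOXM1 turn on the mitotic genes later, in G2. The transcripts fall again when cells leave the cycle, so their amount in a tissue is widely used as a measure of how many cells are dividing. In the mammary gland, division is concentrated in the ducts growing out during puberty and in the side branches and alveoli formed in pregnancy, under oestrogen, progesterone and prolactin.

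The series holds 54 arrays, each of total RNA from a mammary gland, with 3 mice (called A, B and C here after the labels) at each of 18 time points. Virgin females were taken at 6, 10 and 12 weeks of age. Females mated at 12 weeks, with the day of the vaginal plug counted as day 0.5, were taken at pregnancy days 1, 2, 3, 8.5, 12.5, 14.5 and 17.5 and at lactation days 1, 3 and 7. Involution was started by taking the pups away after 7 days of lactation, and glands were taken 1, 2, 3, 4 and 20 days later; no other treatment or genetic change is labelled. Signals are the authors' scaled array intensities. They are not comparable between genes, since each probe set has its own brightness, so only differences of the same gene between time points are given. Signals under 9.4 were set to 9.4 before log2 was taken; the signals given for single mice are as deposited, and means over mice are geometric means after that step. Because a gland is a mixture of cells, more cells of a dividing type and more of these transcripts per cell cannot be told apart.

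Markers of the labelled tissue were measured: at virgin week 12 the summed signal was 2248 to 3794 over 8 luminal epithelial markers, 9966 to 10359 over 6 adipocyte markers, and 865 to 1058 over 7 basal markers, of which 1, Krt5, was at or under 9.4 in all 3 mice. The 3 mice of virgin week 12 served as the reference in 12 of the 19 comparisons, so these comparisons share their error. Means over members or over a class in each mouse include Mcm6, Bub1 and Tacc3, which were too dim to be tested. Over all 41 members, mouse B of virgin week 12 lay 0.37 above its time point's mean on the log2 scale and mouse C 0.32 below. The signal of Arl2bp, a gene outside the cell cycle, lay between 514 and 804 in every mouse up to pregnancy day 3. It lay between 63.2 and 109 in all mice of pregnancy days 12.5 and 14.5, lactation day 7 and involution days 1, 2, 4 and 20, and the other time points held both mice under 109 and mice between 411 and 595. Whatever separates mice by Arl2bp and the stages from pregnancy day 12.5 onwards therefore cannot be told apart in those groups. The signal of Glo1, a second gene outside the cell cycle, was 379.6 to 393.1 at virgin week 12. It was 190.6 to 218.1 at virgin week 10, 198.7 to 223.3 at pregnancy day 1, 210.5 to 227.6 at day 2 and 162.3 to 335.8 at day 3. Whatever separates mice by Glo1 and these stages likewise cannot be told apart in comparisons of them with virgin week 12. At pregnancy day 8.5 mouse C, with an Arl2bp signal of 547, had a mean of the mitosis genes 1.05 above virgin week 12 on the log2 scale, and mice A and B, with 73.0 and 90.3, had 1.12 and 1.15.

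Promoter letters were compared between the replication and the mitosis genes, and 5 promoters are shown for genes whose signals are described further on. Windows of 250 bases before to 50 bases after the transcription start, from RefSeq on GRCm38.p6, were found for 36 of the 41 members. Both strands were searched for E2F-type letters (TTTGGCGC, TTTCCCGC, TTTGCCGC or TTTCGCGC), for the cell cycle homology region bound in mitotic genes (TTTGAA or TTCGAA) and for CCAAT. An E2F-type match was found in 7 of 15 replication promoters (46.7%), in 1 of 18 mitosis promoters (5.56%) and in 2.32% of all 27025 promoters. The mitotic letters TTTGAA or TTCGAA were found in 13 of 18 mitosis promoters (72.2%), in 3 of 15 replication promoters (20%) and in 19.4% of all promoters. CCAAT was found in 15 of 18 mitosis promoters (83.3%), 10 of 15 replication promoters (66.7%) and 37.9% of all. These are matches of letters in a window, and neither binding nor an effect was measured. Capitals mark the matches of all 3 kinds in both directions; in Mcm7 an E2F-type match overlaps a CCAAT match, and in Mcm5 the 2 E2F-type matches overlap each other. Mcm7 and Cdc20 were taken by rule, as the replication and the mitosis gene with their class's letters that passed the test most often, and Mcm5, Ccnb2 and Top2a were added after the matches were seen.
Mcm7 (chr5:138171834-138172133, minus strand): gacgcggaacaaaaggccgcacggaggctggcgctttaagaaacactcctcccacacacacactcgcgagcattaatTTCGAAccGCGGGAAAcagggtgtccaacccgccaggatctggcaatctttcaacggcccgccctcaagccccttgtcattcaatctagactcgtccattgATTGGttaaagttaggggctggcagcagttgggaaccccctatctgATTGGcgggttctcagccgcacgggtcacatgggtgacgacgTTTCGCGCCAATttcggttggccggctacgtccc
Mcm5 (chr8:75109259-75109558, plus strand): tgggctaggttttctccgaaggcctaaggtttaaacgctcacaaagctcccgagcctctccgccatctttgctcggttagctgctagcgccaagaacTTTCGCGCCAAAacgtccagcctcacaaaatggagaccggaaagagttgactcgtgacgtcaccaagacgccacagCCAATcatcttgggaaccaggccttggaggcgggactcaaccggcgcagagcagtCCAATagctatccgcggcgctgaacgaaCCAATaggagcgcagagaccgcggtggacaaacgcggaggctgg
Cdc20 (chr4:118437294-118437593, minus strand): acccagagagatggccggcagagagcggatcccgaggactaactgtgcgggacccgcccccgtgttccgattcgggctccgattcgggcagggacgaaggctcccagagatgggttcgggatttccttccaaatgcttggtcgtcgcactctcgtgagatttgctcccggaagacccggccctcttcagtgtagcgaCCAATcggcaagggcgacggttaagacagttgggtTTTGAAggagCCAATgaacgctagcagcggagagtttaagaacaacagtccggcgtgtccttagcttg
Ccnb2 (chr9:70421505-70421804, minus strand): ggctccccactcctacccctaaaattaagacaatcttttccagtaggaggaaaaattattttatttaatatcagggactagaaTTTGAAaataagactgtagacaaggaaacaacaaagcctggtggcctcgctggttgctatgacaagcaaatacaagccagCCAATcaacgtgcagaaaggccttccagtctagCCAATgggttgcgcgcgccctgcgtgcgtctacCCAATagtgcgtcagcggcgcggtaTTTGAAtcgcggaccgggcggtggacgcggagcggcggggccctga
Top2a (chr11:99024140-99024439, minus strand): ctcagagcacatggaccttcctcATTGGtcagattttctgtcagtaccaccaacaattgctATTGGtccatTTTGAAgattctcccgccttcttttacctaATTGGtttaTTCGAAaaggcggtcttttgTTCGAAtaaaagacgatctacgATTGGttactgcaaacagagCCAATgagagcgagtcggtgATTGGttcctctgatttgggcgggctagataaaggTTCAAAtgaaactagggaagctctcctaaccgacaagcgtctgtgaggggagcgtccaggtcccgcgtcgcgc

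Over the whole cycle 8 to 14 of the 18 mitosis genes were called above the mature virgin gland at virgin week 6 and at each of pregnancy days 2, 3, 8.5, 12.5 and 14.5, against 2 to 7 of the 15 replication genes. In these comparisons the share of all features called higher ran from 1.37% at pregnancy day 2 to 13.3% at virgin week 6. Pregnancy day 8.5 was not compared with day 3 or day 12.5, so no fall between these days was tested. Every one of the 38 tested members differed between time points in an F test over the 18 time points at an adjusted p under 0.05 (limma), as did 89% of all features, so that passing it does not set the members apart. The highest mean signal fell on pregnancy day 3 for 14 members, on pregnancy day 12.5 for 8, on pregnancy day 2 for 7, on virgin week 6 for 5 and on pregnancy day 8.5 for 2. Fen1, the nuclease that trims Okazaki fragments, was highest at lactation day 1, and Mcm5, a helicase subunit, at lactation day 3. The ratio of a member's highest to its lowest time point mean ran from 2.16 for Cenpa, the centromeric histone, to 13 for Rrm1, the large subunit of ribonucleotide reductase, which makes the DNA building blocks. Several of the lowest means were set by the limit of 9.4, as for Mki67 at involution day 3.

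**Figure D1:**
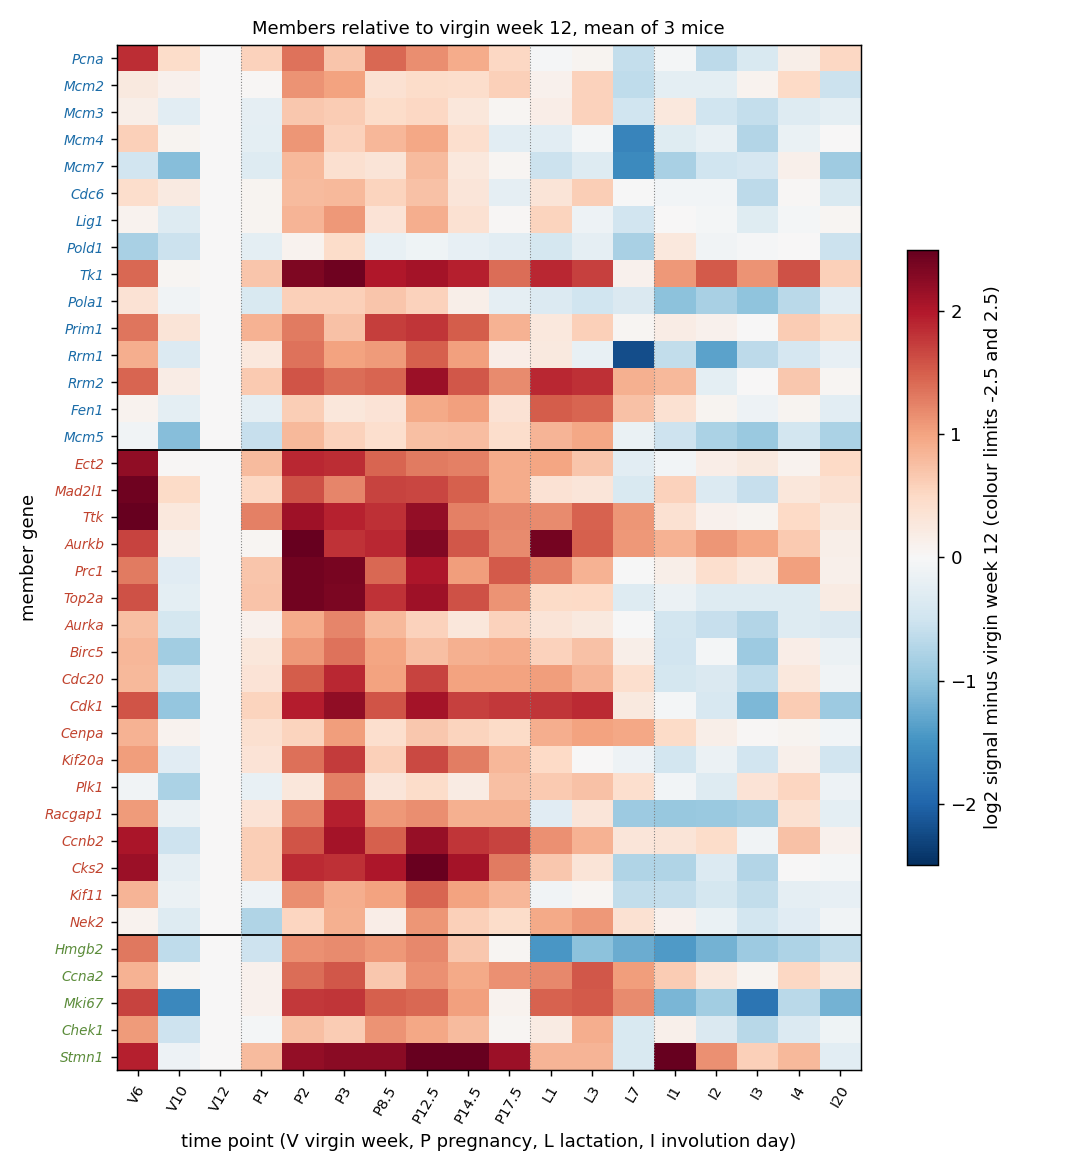
Each row is a member gene (blue names replication, red mitosis, green other cycling genes) and each column a time point; colour is the mean log2 signal of 3 mice minus that of virgin week 12. Red fills virgin week 6 and pregnancy days 2 to 14.5 for most mitosis genes, and Stmn1 has a separate high value at involution day 1.

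**Figure D2:**
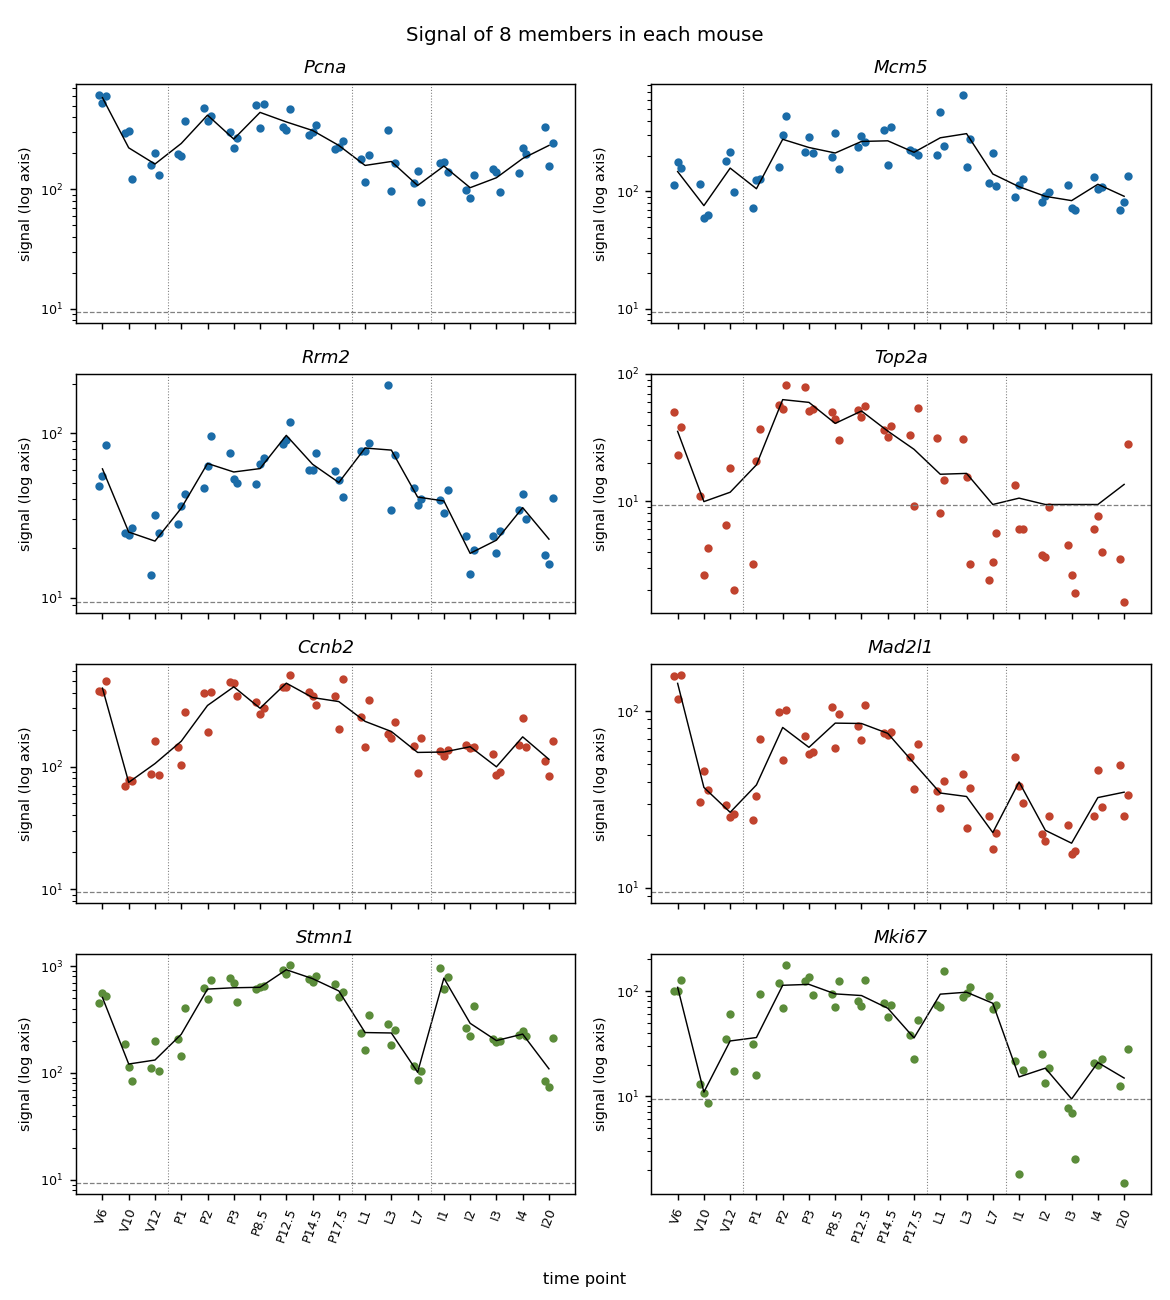
Signal of 8 members on a log axis, 1 point per mouse as deposited, with the line through the geometric means and the dashed line at 9.4. Ccnb2 lies between 404 and 497 in the 3 mice of virgin week 6 and between 69.9 and 77.1 at virgin week 10.

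At virgin week 6, when ducts are growing through the fat pad, most of the mitotic genes were above the mature virgin gland and few of the replication genes passed the test. Against virgin week 12, 12 of 18 mitosis genes, 3 of 15 replication genes and 5 of 5 other cycling genes were called higher, that is at an adjusted p under 0.05 over all features in limma. In all, 20 members were called higher and 1 lower, where 13.3% of all features were called higher and 17.9% lower. Over all 20 mitosis and 16 replication genes, untested members included, the median log2 difference was 1.06 and 0.30, against -0.16 over all tested features.

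Mad2l1, a spindle checkpoint protein that holds back anaphase, gave signals of 158, 118 and 161 at virgin week 6 and of 29.3, 25.1 and 26.1 at virgin week 12. The 2 groups were far apart, with a log2 difference of 2.43 ± 0.32 (SE, n = 3 mice a group here and throughout; adjusted p = 6.1e-06). Ttk, the checkpoint kinase that recruits Mad2l1's complex to kinetochores, was 47.9, 55.3 and 60.4 at virgin week 6 and close to or under 9.4 at virgin week 12, with 5.9, 5.8 and 10.4 (log2 difference 2.48 ± 0.35, adjusted p = 1.4e-05). Since 2 of the 3 reference mice of Ttk, and likewise of Top2a, were under 9.4 and set to it, a higher signal of these genes against virgin week 12 has a log2 difference that is a lower limit, and the same holds for Kif20a. Ect2, which activates the contractile ring of cytokinesis, gave 59.2, 59.9 and 56.3 against 14.7, 13.5 and 10.1. Its log2 difference was 2.21 ± 0.33 (adjusted p = 2.3e-05), and its 3 pubertal mice agreed closely. Ccnb2, a cyclin that drives entry into mitosis with Cdk1, gave 414, 404 and 497 against 86.5, 161 and 84.7, a log2 difference of 2.05 ± 0.32 (adjusted p = 4.2e-05). Top2a, which untangles chromosomes, gave 50.3, 23.1 and 38.0 against 6.5, 18.3 and 2.0 (log2 difference 1.59 ± 0.47, adjusted p = 0.0092).

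Among the replication genes Pcna, the sliding clamp of the DNA polymerases, gave 622, 532 and 605 at virgin week 6 against 161, 202 and 133, a log2 difference of 1.84 ± 0.32 (adjusted p = 0.00014). No member of this role other than Pcna had its highest mean at this age. Rrm2, the small subunit of ribonucleotide reductase, gave 47.9, 54.7 and 85.1 against 13.7, 31.9 and 24.7 (log2 difference 1.46 ± 0.37, adjusted p = 0.0034). Prim1, the primase that starts each new strand, gave 18.7, 20.9 and 34.7, while all 3 mice of virgin week 12 were under the limit of 9.4, so that it was at least 2.54-fold higher (adjusted p = 0.0049). None of the 5 tested helicase subunits was called on the probe sets used: the log2 differences of Mcm2, Mcm3, Mcm4, Mcm5 and Mcm7 ran from -0.48 for Mcm7 to 0.60 for Mcm4. A second probe set of Mcm3 gave 60.2, 64.5 and 56.3 against 38.1, 38.9 and 24.5, with no overlap. The Mcm3 set used had means of 87.1 and 78.1. Mcm5 gave 113, 177 and 159 against 182, 218 and 98.7, and the groups overlapped. The 1 member called lower was Pold1, the catalytic subunit of DNA polymerase delta, with 45.4, 56.6 and 43.2 against 102, 94.7 and 63.3 (log2 difference -0.82 ± 0.32, adjusted p = 0.044).

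Of the other cycling genes, Stmn1, a protein that takes apart microtubules, gave 448, 556 and 530 against 110, 200 and 105 (log2 difference 1.95 ± 0.32, adjusted p = 6.4e-05). Mki67, which encodes the Ki-67 antigen of cycling cells, gave 100.4, 100.5 and 127 against 35.3, 61.0 and 17.5 (log2 difference 1.70 ± 0.44, adjusted p = 0.0041). A second probe set of Mki67 went the other way, with 12.0, 20.1 and 17.9 at virgin week 6 against 39.6, 45.0 and 19.2, so the difference rests on the set used. In a list of 50 further cell cycle genes, 37 of which were tested, 15 were called higher and 1 lower, led by the histone variant H2az1 (mean 433 against 156) and the kinesin Kif22 (229 against 56.6). Marker genes of other cells moved in the same comparison: 5 of 7 fibroblast markers were called higher, their summed signal being 23777 to 25587 against 13591 to 15186, and 6 of 8 luminal markers were called lower, with sums of 1291 to 1390 against 2248 to 3794. The 3′ to 5′ ratio of beta-actin, a measure of RNA integrity, was 3.75 ± 0.363 (SD, n = 3) at virgin week 6 and 1.99 ± 0.487 at virgin week 12. Their part in the result was not tested beyond a fit with that ratio as a covariate, in which the members called higher numbered 10 in place of 20; without mouse C of virgin week 6 they numbered 13.

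By virgin week 10 many of the pubertal signals had fallen. Against virgin week 6, 16 members were called lower and 0 higher (10 of 18 mitosis, 2 of 15 replication and 4 of 5 other cycling genes), where 3.6% of all features were called lower and 2.67% higher. Ccnb2 was down to 69.9, 77.1 and 76.2 (log2 difference -2.55 ± 0.32, adjusted p = 3.1e-06). Mki67 gave 13.1, 10.6 and 8.7, a log2 difference of -3.31 ± 0.44 (adjusted p = 5.7e-06) and the largest of any member in this comparison, while its second probe set had a mean of 29.4 here and 16.3 at virgin week 6. For Ect2 the 3 mice gave 12.1, 13.1 and 13.3 (log2 difference -2.19 ± 0.33, adjusted p = 4.4e-05). Stmn1 gave 186, 113 and 84.8 (log2 difference -2.07 ± 0.32, adjusted p = 5.2e-05). Pcna fell less far and unevenly, to 294, 308 and 122 (log2 difference -1.39 ± 0.32, adjusted p = 0.0062). Of the further cell cycle genes 10 of 37 were called lower and 0 higher, and 4 of 7 fibroblast markers were lower as well. In a fit of these 6 arrays alone 4 members passed.

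On pregnancy day 1 no member was called in either direction against virgin week 12 (limma), with 5 at an unadjusted p under 0.05; 0.041% of all features were called higher and 0.0547% lower. The 3 mice were unlike each other. Mouse C had a mean of the mitosis genes 0.99 above virgin week 12 on the log2 scale, and mice A and B had 0.07 and 0.02. Its Ccnb2 signal was 278 against 144 and 104, and its Mki67 signal 93.1 against 31.7 and 16.

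On pregnancy day 2 the rise was present in all 3 mice. Members called higher numbered 17 (10 of 18 mitosis, 4 of 15 replication and 3 of 5 other cycling genes) and members called lower 0, where 1.37% of all features were called higher and 0.41% lower. Stmn1 gave 621, 493 and 742 against 110, 200 and 105 (log2 difference 2.21 ± 0.32, adjusted p = 2.7e-05). Top2a gave 57.0, 52.9 and 82.3, its highest mean of any time point (log2 difference 2.42 ± 0.47, adjusted p = 0.002). Ttk gave 46.6, 37.2 and 43.8 (log2 difference 2.12 ± 0.35, adjusted p = 0.00051) and Ect2 71.8, 32.4 and 43.4 (1.89 ± 0.33, adjusted p = 0.001). Cdc20, the activator of the complex that triggers anaphase, gave 235, 156 and 308 against 77.5, 118 and 54 (log2 difference 1.51 ± 0.30, adjusted p = 0.0031). Of the replication genes Pcna, Rrm2, Tk1 and Prim1 were called. Tk1, the thymidine kinase of the nucleotide salvage pathway, gave 102, 92.5 and 174.5 against 16.2, 62.9 and 12.4 (log2 difference 2.34 ± 0.61, adjusted p = 0.03), the spread of the reference mice being large. Helicase subunits were not called, although Mcm2, Mcm3, Mcm4 and Mcm7 had their highest means here; Mcm4 gave 116, 133 and 136 against 56.2, 80.8 and 47.0, with no overlap. The count of 17 rested on few mice: it was 5 without mouse C of pregnancy day 2, 9 without mouse C and 10 without mouse A of virgin week 12. It was 1 in a fit of the 6 arrays alone, and 1 with Arl2bp and Glo1, a second gene outside the cell cycle that differed between mice, as covariates.

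Pregnancy day 3 held the highest mean of 8 of the 18 mitosis genes. Called higher against virgin week 12 were 18 members, with 13 of 18 mitosis genes, 2 of 15 replication genes (Rrm2 and Tk1) and 3 of 5 other cycling genes, where 2.53% of all features were called higher; 0 members and 1.66% of features were called lower. The median log2 difference was 1.77 over all 20 mitosis genes and 0.66 over all 16 replication genes, untested members included, against 0.04 over all tested features. Stmn1 gave 771, 696 and 461 (log2 difference 2.25 ± 0.32, adjusted p = 2.4e-05). Ccnb2 gave 490, 480 and 379 (2.08 ± 0.32, adjusted p = 0.00012). Cdc20 gave 312, 340.5 and 231 (1.88 ± 0.30, adjusted p = 0.00017). All 3 stood above every mouse of virgin week 12.

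Ect2 gave 48.1, 41.1 and 46.4 on this day (log2 difference 1.84 ± 0.33, adjusted p = 0.0007). Cdk1, the kinase that drives mitosis, gave 285, 201 and 132.5 against 29.9, 83.2 and 30.3, a log2 difference of 2.22 ± 0.56 (adjusted p = 0.015). Racgap1, Ect2's partner in cytokinesis, gave 67.3, 89.2 and 55.8 against 26.5, 23.9 and 4.9 (1.94 ± 0.40, adjusted p = 0.0027). Mad2l1 gave 72.7, 57.4 and 58.6, far under its pubertal level though above virgin week 12 (1.22 ± 0.32, adjusted p = 0.022). Mki67 gave 124, 136 and 92.4 (1.79 ± 0.44, adjusted p = 0.013), its highest mean. Its second probe set did not rise, with means of 29.8 on this day and 32.5 at virgin week 12. On pregnancy days 2, 8.5 and 12.5 that set had 28.4, 13.9 and 21.9, so the Mki67 calls of these days rest on the set used. Pcna gave 303, 224 and 269, above every virgin week 12 mouse but not called (0.69 ± 0.32, adjusted p = 0.24), and Mcm5 gave 214.5, 288 and 213 (0.58 ± 0.38, adjusted p = 0.45).

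Of the further cell cycle genes 10 of 37 were called higher and 0 lower on pregnancy day 3, among them Cdca8, a partner of Aurkb, at a mean of 112 against 37.1. The luminal claudin gene Cldn3 (485 against 168) and Cldn7 were higher, as 2 of 8 luminal markers called, and 2 of 3 tested T cell markers were lower (Cd5 and Cd3e), with summed T cell signals of 53.0 to 101.0 against 149 to 263; their part in the result was not tested. Without mouse C of virgin week 12 the members called numbered 10. A fit of the 6 arrays alone gave 11, and the Arl2bp and Glo1 covariates 5.

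On pregnancy day 8.5, members called higher numbered 16 and lower 0 (8 of 18 mitosis, 4 of 15 replication and 4 of 5 other cycling genes), where 5.18% of all features were called higher and 6.96% lower. Stmn1 gave 611, 636 and 656 (log2 difference 2.26 ± 0.32, adjusted p = 6.8e-06). Mad2l1 gave 106, 61.8 and 96.1 (1.68 ± 0.32, adjusted p = 0.00091), and Ttk 36.2, 25.1 and 45.2 (1.83 ± 0.35, adjusted p = 0.001). Cks2, a small protein that binds Cdk1, gave 180, 126 and 141 against 34.1, 55.9 and 24.5 (2.03 ± 0.42, adjusted p = 0.0019). Pcna was high again at 505, 328 and 515 (1.44 ± 0.32, adjusted p = 0.004), while Ccnb2 gave 334, 266 and 301 and Top2a 50.6, 44.2 and 30.5. In the same comparison 3 of 8 luminal markers were called lower and 3 of 5 tested basal markers higher, and their part in the result was not tested. The count was 8 without mouse A and 10 without mouse C of virgin week 12, 10 without mouse A and 8 without mouse C of pregnancy day 8.5, 8 in a fit of the 6 arrays, and 1 with the Arl2bp and Glo1 covariates.

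Pregnancy day 12.5, when alveoli are filling the fat pad, had the most members above the mature virgin gland of the comparisons made, and its mice lay close together. Members called higher numbered 26 and lower 0, where 8.93% of all features were called higher and 8.1% lower. They were 14 of 18 mitosis genes, 7 of 15 replication genes and 5 of 5 other cycling genes. The mean over all 41 members was 1.26, 1.24 and 1.34 above virgin week 12 on the log2 scale in mice A, B and C. Stmn1 reached 913, 850 and 1021, its highest (log2 difference 2.81 ± 0.32, adjusted p = 1.9e-08). Ccnb2 also had its highest mean, with 443, 444 and 559 (2.18 ± 0.32, adjusted p = 5.3e-06). Ttk gave 38.1, 38.6 and 59.4 (2.19 ± 0.35, adjusted p = 2.4e-05), and Cks2 gave 212, 160 and 235 (2.47 ± 0.42, adjusted p = 5.6e-05).

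Of the 15 replication genes, 7 were called on pregnancy day 12.5. Rrm2 gave 86.1, 90.4 and 117 against 13.7, 31.9 and 24.7 (log2 difference 2.13 ± 0.37, adjusted p = 7e-05), and Rrm1 gave 148, 150 and 149 against 38.9, 78.8 and 49.2 (1.49 ± 0.52, adjusted p = 0.041). Prim1, at 33.2, 27.9 and 37.2, was at least 3.46-fold above virgin week 12 (adjusted p = 0.00046). Pcna gave 332, 314 and 472.5 (1.17 ± 0.32, adjusted p = 0.0099), Fen1 56.4, 65.5 and 57.2 (0.95 ± 0.31, adjusted p = 0.03) and Mcm4 105, 124 and 121 (0.96 ± 0.32, adjusted p = 0.034). Not called were Mcm5, with 237, 298 and 265 (0.75 ± 0.38, adjusted p = 0.17), Mcm2, Mcm3, Mcm7, Cdc6, Lig1, Pola1 and Pold1. Of the mitosis genes Plk1, Aurka, Birc5 and Cenpa were not called, with log2 differences of 0.46 to 0.76.

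Among the further cell cycle genes 15 of 37 were higher and 0 lower on pregnancy day 12.5, including Gmnn, the licensing inhibitor geminin (53.4 against 14.2). In the same comparison 3 of 5 tested basal markers, Mylk, Acta2 and Cnn1, were called higher (summed basal signal 2305 to 2791 against 865 to 1058, with Krt14 and Krt5 at or under 9.4 in all 3 mice), 3 of 8 luminal markers (Cldn3, Epcam and Cldn7) were higher, and 4 of 5 B cell markers were lower; their part in the result was not tested. The members called numbered 16 without mouse C of virgin week 12, 16 without mouse C of pregnancy day 12.5 and 4 with the Arl2bp and Glo1 covariates, in which the median standard error of the members was 0.52 in place of 0.36.

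By pregnancy day 14.5 the count was 17 higher and 0 lower (10 mitosis, 5 replication and 2 other cycling genes), where 9.66% of all features were called higher and 9.52% lower. Stmn1 gave 764, 715 and 816 (log2 difference 2.53 ± 0.32, adjusted p = 1e-07) and Ccnb2 407, 379 and 316 (1.79 ± 0.32, adjusted p = 8.5e-05). Cks2 gave 136, 173 and 150 (2.08 ± 0.42, adjusted p = 0.00043) and Mad2l1 75.9, 73.2 and 76.1 (1.49 ± 0.32, adjusted p = 0.00096). In the same comparison 3 of 8 luminal and 3 of 5 tested basal markers were called higher, and 4 of 6 adipocyte, 4 of 7 endothelial and 3 of 5 B cell markers lower; their part in the result was not tested. Without mouse A of virgin week 12 the count was 11, without its mouse C 9, without mouse C of pregnancy day 14.5 11, and with the Arl2bp and Glo1 covariates 1. From pregnancy day 12.5 to day 17.5, 3 members were called lower and 0 higher, where 5.53% of features were lower and 4.23% higher. They were Mcm4 (42.2, 64.6 and 45.4 on day 17.5; log2 difference -1.22 ± 0.32, adjusted p = 0.012), Hmgb2, a chromatin protein (-1.15 ± 0.37, adjusted p = 0.039), and Mki67 (38.5, 22.7 and 52.7; -1.34 ± 0.44, adjusted p = 0.045). This count moved between 0 and 4 when single mice were left out: it was 0 without mouse C of day 12.5 or mouse A of day 17.5, and 1 without mouse A of day 12.5 or mouse B of day 17.5. For Mki67 a second probe set went the other way, with 28.8, 26.8 and 51.2 on day 17.5 against 25.8, 17.0 and 23.8 on day 12.5. Mouse B of pregnancy day 17.5 had a mean of the mitosis genes of 0.44, under the 1.02 and 1.29 of mice A and C. It was also the mouse with the low Arl2bp signal, 77.0 beside 521 and 595, and the part of that difference was not tested.

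**Figure D3:**
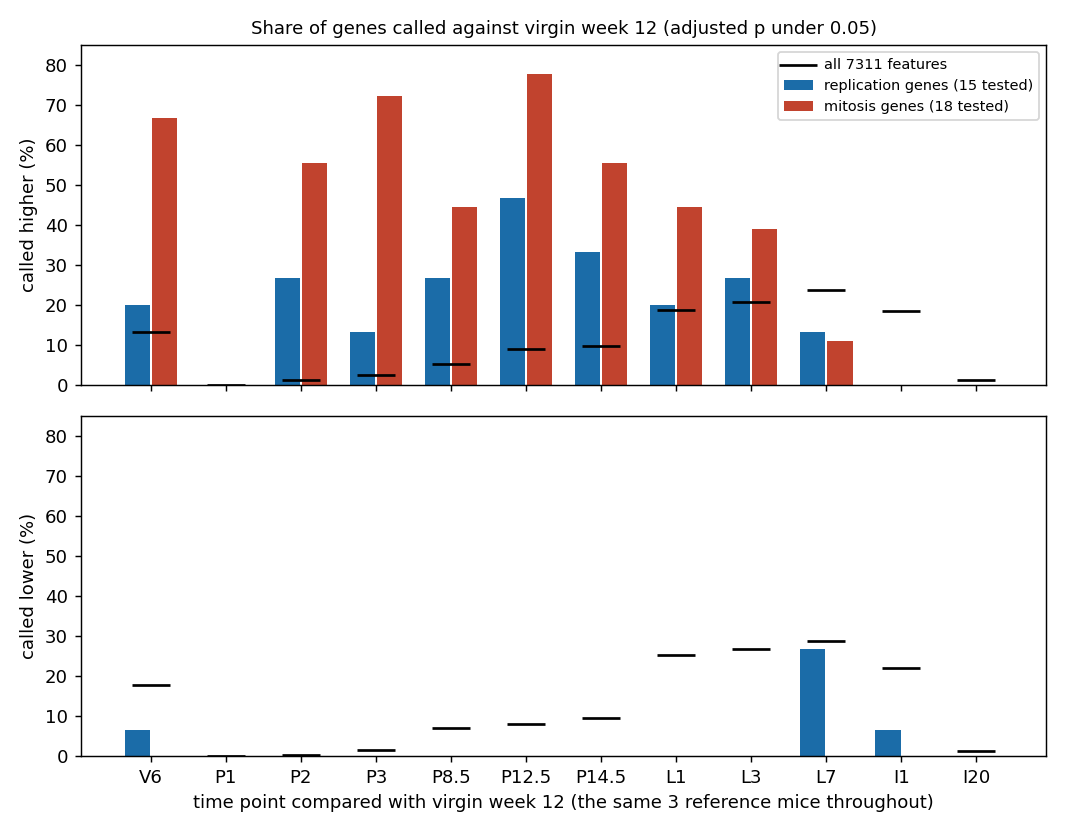
Bars give the share of the 15 tested replication and the 18 tested mitosis genes called higher (top) or lower (bottom) than virgin week 12, and black dashes the share of all 7311 features. The share of mitosis genes called higher exceeds the dashes at virgin week 6, pregnancy days 2, 3, 8.5, 12.5 and 14.5 and lactation days 1 and 3, and is highest at pregnancy day 12.5 with 14 of 18; at lactation day 7 both bars lie under them.

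Virgin week 6 and pregnancy days 3 and 12.5 were then set against each other directly. Between pregnancy day 3 and virgin week 6, 4 members were called higher on day 3 and 2 lower, where 22.2% of all features were called higher and 14.6% lower, so that fewer members than features differed. Lower on day 3 were Mad2l1 (log2 difference -1.2 ± 0.32, adjusted p = 0.0041) and Pcna (-1.15 ± 0.32, adjusted p = 0.0056), the groups of both being well apart. Higher on day 3 were Pold1, with 106, 116 and 129 against 45.4, 56.6 and 43.2 (1.28 ± 0.32, adjusted p = 0.0022), Cdc20 (1.06 ± 0.30, adjusted p = 0.0059), Plk1, a kinase of mitotic entry and exit (1.35 ± 0.42, adjusted p = 0.012), and Mcm7 (0.89 ± 0.36, adjusted p = 0.049). Mcm7's groups overlapped, with 172, 180 and 72.4 against 64.3, 79.2 and 69.1. Another probe set of Plk1 went the other way, with 29.0, 24.4 and 25.8 on day 3 against 64.1, 50.1 and 80.1. The remaining Plk1 set was higher on day 3 like the set used, with 55.7, 73.0 and 46.5 against 18.0, 20.2 and 23.1. The direction for Plk1 thus depends on the probe set. Without mouse B of day 3, 2 members were called higher, and 10 were in a fit of the 6 arrays alone.

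Between pregnancy day 12.5 and virgin week 6, 5 members were called higher and 1 lower, where 11.5% of all features were higher and 9.19% lower. Mcm7 gave 162, 187 and 161 against 64.3, 79.2 and 69.1 (log2 difference 1.26 ± 0.36, adjusted p = 0.011). Nek2, a centrosome kinase, was higher by 1.02 ± 0.34 (adjusted p = 0.03), Cdc20 by 0.87 ± 0.30 (adjusted p = 0.034), Fen1 by 0.87 ± 0.31 (adjusted p = 0.04) and Stmn1 by 0.86 ± 0.32 (adjusted p = 0.047). The 1 lower member was Ect2, at 23.8, 26.1 and 48.2 against 59.2, 59.9 and 56.3 (-0.91 ± 0.33, adjusted p = 0.044). These calls were near the threshold: without each of mice A, B and C of virgin week 6 in turn the higher calls numbered 2, 2 and 1, and without those of day 12.5 2, 0 and 3. Between pregnancy days 12.5 and 3, a single member was called, where 7.07% of all features were called higher and 7.5% lower. This was Prim1, at 33.2, 27.9 and 37.2 on day 12.5 against 25.5, 10.5 and 14.4 on day 3 (1.05 ± 0.36, adjusted p = 0.04), and it was not called without mouse B or C of day 3 or mouse A or C of day 12.5. A member that passed no test is not shown to be equal at both time points, the median standard error of a member's log2 difference being 0.36.

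The replication and mitosis classes were compared by their mean log2 difference from virgin week 12 in each mouse, as a description with no test. The means are over all 16 replication and 20 mitosis genes, with the untested Mcm6, Bub1 and Tacc3 included. At virgin week 6 the replication genes lay 0.91, 0.57 and 0.83 under the mitosis genes in mice A, B and C. At pregnancy day 3 they lay 0.83, 0.78 and 0.62 under them, and at pregnancy day 12.5 0.55, 0.37 and 0.67. Every mouse of these 3 time points thus had the smaller change in the replication genes. This was not particular to them. The replication genes also lay under the mitosis genes in every mouse of pregnancy days 8.5, 14.5 and 17.5, with mean gaps of -0.365, -0.376 and -0.623. At pregnancy day 2 the means differed widely, from 0.91 under in mouse A to 0.002 above in mouse B. At lactation day 7 the replication genes again lay under the mitosis genes, by 0.46, 0.58 and 0.48, but on either side of the virgin level: the replication mean was -0.32, -0.54 and -0.44, and the mitosis mean 0.14, 0.04 and 0.04. In involution the classes did not separate, with differences from -0.32 to 0.17 over the 12 mice of days 1 to 4. The size of the gap depends on the floor. Of the tested mitosis genes, Top2a, Kif20a and Ttk each had 2 mice of virgin week 12 at it. The untested Mcm6, Bub1 and Tacc3 had virgin week 12 means at or close to it, of 9.4, 9.47 and 10.9. At pregnancy day 12.5 the mean gap of -0.53 became -0.26 with a floor at the 40th percentile and -0.73 with none, and at virgin week 6 the mean gap of -0.77 became -0.51 and -1.005.

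**Figure D4:**
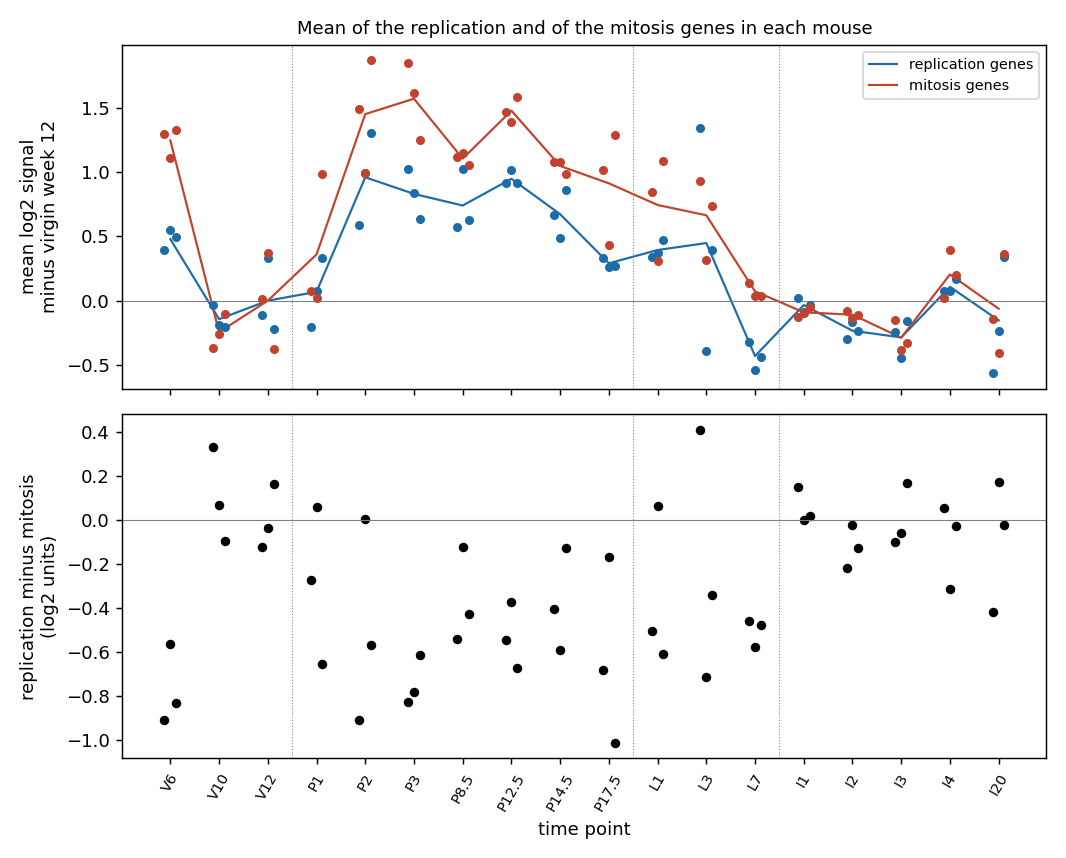
Top: mean log2 difference from virgin week 12 over the replication genes (blue) and the mitosis genes (red), 1 point per mouse, with lines through the time point means. Bottom: replication minus mitosis in each mouse. All mice of virgin week 6, pregnancy days 3 to 17.5, lactation day 7 and involution day 2 lie under 0, and mouse A of lactation day 3 lies 0.41 above it.

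In early lactation part of the set was still raised. On lactation day 1 (the comparisons of pregnancy day 1, lactation days 1 and 3 and involution day 1 were added after the levels were seen), 14 members were called higher than virgin week 12 (8 mitosis, 3 replication, 3 other cycling) and 1 lower, where 18.8% of all features were called higher and 25.3% lower. Rrm2 gave 78.0, 78.3 and 87.5 (log2 difference 1.88 ± 0.37, adjusted p = 5.4e-05), and Fen1 107, 69.2 and 90.5 against 36.8, 29.9 and 26.4 (1.51 ± 0.31, adjusted p = 0.00011). Aurkb, the kinase that corrects chromosome attachment, gave 70.5, 60.7 and 102 against 16.4, 19.4 and 8.9 (2.40 ± 0.55, adjusted p = 0.00042). Ccna2, the cyclin of S phase and G2, was higher by 1.2 ± 0.30 (adjusted p = 0.00098). The 1 member called lower was Hmgb2, with 6.8, 11.8 and 6.9 against 27.7, 39.9 and 19.5 (-1.46 ± 0.37, adjusted p = 0.0013). Pcna, at 179.5, 114.5 and 194, overlapped its virgin signals, and Mki67, at 74.2, 70.4 and 157, was above it (1.48 ± 0.44, adjusted p = 0.0057). The mean of the mitosis genes was 0.84 and 1.09 in mice A and C, with Arl2bp signals of 92.0 and 82.2, and 0.31 in mouse B, with 480. Without mouse C of virgin week 12 the count was 9, and with the Arl2bp and Glo1 covariates 0. In that comparison 7 of 7 fibroblast, 6 of 6 adipocyte, 5 of 7 endothelial and 5 of 7 macrophage markers were called lower, and their part in the result was not tested.

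On lactation day 3, 15 members were called higher (7 mitosis, 4 replication, 4 other cycling) and 1, again Hmgb2, lower (-1.03 ± 0.37, adjusted p = 0.019), where 20.8% of all features were called higher and 26.7% lower. By adjusted p the leading members were Ccna2 (log2 difference 1.55 ± 0.30, adjusted p = 3.4e-05), Rrm2 (1.83 ± 0.37, adjusted p = 6.7e-05), Fen1 (1.45 ± 0.31, adjusted p = 0.00017) and Ttk (1.47 ± 0.35, adjusted p = 0.0007). Its 3 mice disagreed on DNA replication: the mean of the replication genes was 1.34 in mouse A, -0.39 in mouse B and 0.40 in mouse C. Mouse A alone gave the series' highest Mcm5 signal, 666, beside 160 and 277, and the highest Rrm2 signal, 197, beside 34 and 73.3. For Rrm1 the signals of mice A, B and C were 123, 11 and 76.6. Again 7 of 7 fibroblast, 6 of 6 adipocyte and 5 of 7 endothelial markers were called lower, with 4 of 7 macrophage markers, and their part in the result was not tested. Without mouse A the count was 9, without mouse C of virgin week 12 it was 7, and with the Arl2bp and Glo1 covariates 1.

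By lactation day 7 the members had moved apart from each other. Against virgin week 12, 6 were called higher and 5 lower, where 23.8% of all features were called higher and 28.8% lower, so neither share of members exceeded that of all features. Lower were 4 replication genes and Hmgb2. Mcm4 gave 9.2, 21.7 and 33.8 against 56.2, 80.8 and 47.0 (log2 difference -1.65 ± 0.32, adjusted p = 3.8e-05). Mcm7 gave 49.1, 33.0 and 21.1 against 92.9, 122 and 84.3 (-1.60 ± 0.36, adjusted p = 0.00028). Rrm1 gave 15.3, 10.6 and 7.5 against 38.9, 78.8 and 49.2 (-2.21 ± 0.52, adjusted p = 0.0004). Each of these 3 had every lactation mouse under every virgin mouse. Pold1 was lower by a log2 difference of -0.80 ± 0.32 (adjusted p = 0.031), and Hmgb2 by -1.25 ± 0.37 (adjusted p = 0.0046). A second probe set of Pold1 went the other way, with 41.3, 40.9 and 33.7 on lactation day 7 against 20.5, 19.3 and 11.6 at virgin week 12. The direction for Pold1 thus depends on the probe set.

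Higher at lactation day 7 were Ccna2 (log2 difference 1.05 ± 0.30, adjusted p = 0.003), Ttk (1.11 ± 0.35, adjusted p = 0.008), Cenpa (0.96 ± 0.34, adjusted p = 0.017), Mki67 (1.19 ± 0.44, adjusted p = 0.022), Rrm2 (0.89 ± 0.37, adjusted p = 0.04) and Fen1 (0.74 ± 0.31, adjusted p = 0.042). Mki67 gave 90.8, 67.7 and 73.0 against 35.3, 61.0 and 17.5, while Top2a was under 9.4 in all 3 lactation mice, Ccnb2 gave 148, 87.8 and 171, and Stmn1 gave 116, 85.8 and 106. Rrm1 and Rrm2, the 2 subunits of 1 enzyme, thus had called differences of opposite sign. A second probe set of Mki67, which hardly tracked the first over the cycle (r = 0.07 over 18 time point means), gave 61.3, 60.3 and 92.3 on lactation day 7 against 39.6, 45.0 and 19.2 at virgin week 12. Its highest mean was on that day, while the set used was highest on pregnancy day 3.

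Cell type markers differed in the same lactation comparison: 6 of 6 adipocyte markers and 7 of 7 fibroblast markers were called lower, the fibroblast sum being 1548 to 2212 against 13591 to 15186, and 5 of 7 macrophage markers were lower; their part in the result was not tested. Of the further cell cycle genes 8 of 37 were higher and 5 lower, among them the phosphatase Cdc25a (221 against 69.9) and the regulator Mybl2 (63.2 against 24.5). The members called higher numbered 3 without mouse C of virgin week 12, 2 without mouse A and 3 without mouse C of lactation day 7, 3 in a fit of the 6 arrays, and 0 with the Arl2bp and Glo1 covariates, with which 3 were called lower.

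**Figure D5:**
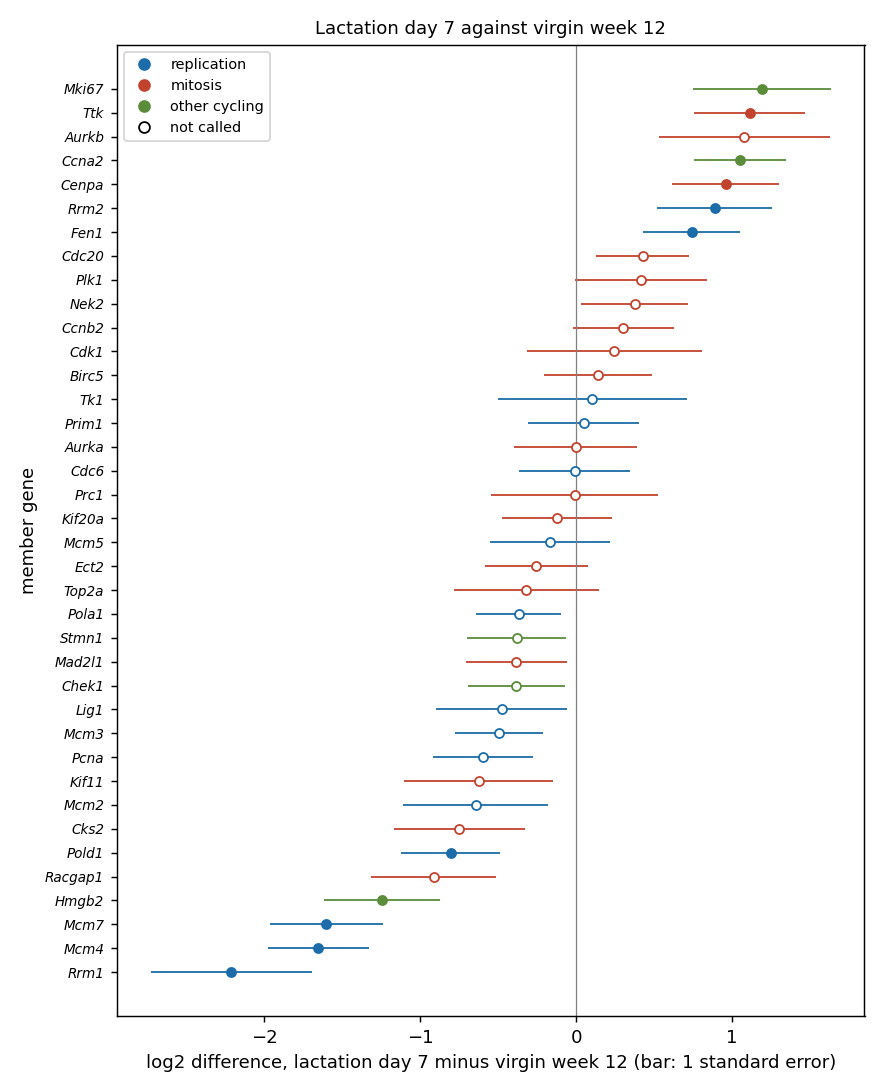
Log2 difference between lactation day 7 and virgin week 12 for the 38 tested members, with 1 standard error; filled points passed the test. Rrm1, Mcm4 and Mcm7 lie lowest, at -2.21, -1.65 and -1.60, and Mki67 highest at 1.19.

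When the pups were removed, Stmn1 left the rest of the set. On involution day 1 it gave 952, 614 and 788, against 116, 85.8 and 106 on lactation day 7 (log2 difference 2.93 ± 0.32, adjusted p = 1.1e-09) and against 110, 200 and 105 at virgin week 12 (2.55 ± 0.32, adjusted p = 1.2e-08). In the same 3 mice the mean of the mitosis genes was -0.13, -0.09 and -0.05 relative to virgin week 12, Ccnb2 gave 135, 122 and 137, and Mki67 gave 21.4, 1.8 and 17.6. The Stmn1 signal was 262, 223 and 424 a day later, under every mouse of day 1 but still above every mouse of lactation day 7 and of virgin week 12. Its only other probe set was at or under 9.4 in 51 of 54 arrays and could not serve as a check. Of 7 macrophage markers, Cd14 and Cd68 were called higher than on lactation day 7 and 0 lower, Cd14 making up most of the list's summed signal, and 5 of 7 fibroblast and 4 of 8 luminal markers were higher. Against virgin week 12, 1 macrophage marker (Cd14) was higher and 4 were lower, and 7 of 7 fibroblast and 6 of 6 adipocyte markers were lower; their part in the result was not tested.

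Against virgin week 12, Stmn1 was the 1 member called higher on involution day 1, and Hmgb2, Pola1 and Mki67 were called lower, where 18.5% of all features were called higher and 22.1% lower. Hmgb2 differed by -1.41 ± 0.37 (adjusted p = 0.002), Pola1, the polymerase that extends primers, by -1.02 ± 0.27 (adjusted p = 0.0023), and Mki67 by -1.14 ± 0.44 (adjusted p = 0.035), the groups of Pola1 and Mki67 overlapping. The second probe set of Mki67 went the other way, with 30.4, 54.1 and 43.6 against 39.6, 45.0 and 19.2, also overlapping. Lower calls numbered 1 without mouse B of involution day 1. Against lactation day 7, 6 members were called higher and 2 lower, where 15.2% of all features were higher and 11.7% lower, a share of higher members close to that of all features. Higher beside Stmn1 were Mcm4, with overlapping groups (1.35 ± 0.32, adjusted p = 0.0013), Pold1 (1.07 ± 0.32, adjusted p = 0.0094), Rrm1 (1.59 ± 0.52, adjusted p = 0.018), Mad2l1 (0.95 ± 0.32, adjusted p = 0.024) and Mcm3 (0.77 ± 0.28, adjusted p = 0.037). Lower were Mki67 (-2.33 ± 0.44, adjusted p = 6.6e-05) and Cdc20, with 49.5, 53.7 and 74.2 against 124, 101 and 96.3 (-0.87 ± 0.30, adjusted p = 0.025). For Pold1 a second probe set went the other way, with a mean of 28.6 on involution day 1 against 38.5 on lactation day 7. The higher calls numbered 2 without mouse B and 3 without mouse C of lactation day 7, 3 without mouse A of involution day 1, and 1 in a fit of the 6 arrays.

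By involution day 4 several replication genes that had been low on lactation day 7 were higher again, although the members as a whole were not called higher more often than other genes. Against lactation day 7, 8 members were called higher and 2 lower, where 23.9% of all features were called higher and 21.8% lower, so both shares of members were under those of all features. Of the 8, 6 were replication genes. Mcm7 gave 112, 110 and 103 against 49.1, 33.0 and 21.1 (log2 difference 1.74 ± 0.36, adjusted p = 0.00013), Mcm4 gave 41.2, 59.3 and 62.6 (1.49 ± 0.32, adjusted p = 0.0002), and Rrm1 gave 39.0, 42.9 and 38.3 (1.80 ± 0.52, adjusted p = 0.004). Stmn1 gave 226, 249 and 220 (1.19 ± 0.32, adjusted p = 0.0021), and Pold1, Tk1, Mcm2 and Racgap1 were the other higher members. Lower were Mki67, at 20.6, 19.8 and 22.4 (-1.87 ± 0.44, adjusted p = 0.00056), and Cenpa (-0.90 ± 0.34, adjusted p = 0.028), whose groups overlapped. In the same comparison 7 of 7 fibroblast, 6 of 6 adipocyte and 6 of 7 macrophage markers were called higher, and their part in the result was not tested. Of the further cell cycle genes 3 of 37 were higher and 8 lower. Without mouse C of involution day 4, 5 members were called higher.

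After 20 days of involution no member was called against virgin week 12 in either direction (limma), with 3 at an unadjusted p under 0.05, where 1.19% of all features were called higher and 1.4% lower. Without mouse C of involution day 20, 2 members were called lower. The medians over all 16 replication and 20 mitosis genes, untested members included, were close to 0, at -0.22 and -0.07. The mice spread widely, the mean over all members being -0.34, -0.40 and 0.33 in mice A, B and C. Ccnb2 gave 111, 83.6 and 162, and Mki67 12.4, 1.5 and 28.2. Pcna gave 330, 156 and 246 against 161, 202 and 133, with overlap.

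Within the set, the mitosis genes shared a profile more closely than the replication genes did, described by Pearson's r over the 18 time point means of log2 signal. The median over pairs was 0.81 among the 18 mitosis genes, 0.63 among the 15 replication genes and 0.70 between the classes. These means come from the same arrays, and the replication genes' smaller range leaves more room for noise. Closest to the mean of all other members were Top2a (r = 0.95), Cdc20 (0.94), Ccnb2 (0.93) and Cdk1 (0.93), and farthest were Pold1 (0.20), Fen1 (0.49), Plk1 (0.54) and Cenpa (0.61). Pold1 was lowest at virgin week 6, where most members were high. For 11 members the array held more than 1 probe set, and the brightest one was used. The second sets of Mcm3 and Kif20a, a kinesin of cytokinesis, tracked the one used, with r = 0.94 and 0.65, the latter being at the floor on 38 arrays, and of the other sets of Plk1 one gave 0.65 and one 0.08. Second sets of Tk1 (-0.02), Lig1 (-0.32) and Pold1 (-0.10), the first 2 of them partly at the floor, did not, so the profiles of these genes rest on 1 probe set each.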

How the data were processed

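The members, their roles and the gene lists were chosen with earlier results of these data known. Each of the 54 arrays gave MAS5 signal intensity per probe set, made and deposited by the authors; MAS5 is named per the submitters' processing notes, its version being not given in the sources used here. All deposited intensities had been scaled, the mean after trimming 2% at each end being 100.05 to 100.07 on every array. Precision is limited by 3 mice a time point, each 1 array of 1 gland per the labels.

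Of 12488 probe sets, 10833 had 1 symbol, 396 several and 1193 none; 66 control probe sets were left out. Signals under 9.4 (the 25th percentile) were set to it, and probe sets had to exceed 22.8 (the 40th percentile) in all 3 arrays of a time point. The probe set with the highest mean stood for its gene, which left 7311 features. A mean per time point was fitted to log2 signals of all 54 arrays with limma 3.58.1 in R 4.3.3 (lmFit, contrasts, eBayes with intensity trend, 2-sided; 36 residual and 6.77 prior degrees of freedom), with Benjamini-Hochberg adjustment over all 7311 features. Calls needed an adjusted p under 0.05. The procedure was tested on simulated data. Python 3.11.15 made the tables (pandas 2.3.3, numpy 2.4.6) and the figures (drawn by matplotlib 3.10.9).

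Named with each mouse's signal were Pcna, Mcm5, Rrm2, Top2a, Ccnb2, Mad2l1, Stmn1 and Mki67, the 4 members of lowest adjusted p with no overlap in each comparison, and called members opposite to the majority; other members were named after their values were seen. From the lists of further cell cycle genes and cell type markers at most 3 genes a comparison were eligible. Promoters were matched by Entrez gene identifier, taking the first window where several were listed. Alternatives were other floors, scalings, filters, probe set choices, weights, a replicate block, covariates, fits of only 6 arrays and fits without each array.

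Arrays of a time point correlated at r = 0.878 to 0.977, and 38 of 54 were closest to an array of their own time point.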

Additional observations from a re-analysis of the deposited data

How the results depend on the processing

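Counts of members called moved by over 1.5 times under some settings, and the cause was not tested. With Arl2bp and Glo1 as covariates the members called higher than virgin week 12 numbered 1 at pregnancy day 2, 5 at day 3, 1 at day 8.5, 4 at day 12.5, 1 at day 14.5, 0 at lactation day 1, 1 at lactation day 3 and 0 at lactation day 7, and 0 were lower at involution day 1; the counts were 0 for pregnancy day 12.5 against virgin week 6, 0 for day 12.5 against day 3 and 1 for day 17.5 against day 12.5. In this fit Fen1 at lactation day 7 turned to -0.10 and Aurkb at lactation day 3 to -0.15. With the beta-actin ratio the counts were 10 at virgin week 6, 2 for pregnancy day 3 against virgin week 6, and 1 for day 17.5. In fits of only 6 arrays, where fewer samples set the spread, they were 4 (virgin week 10 against 6), 1, 11 and 8 (pregnancy days 2, 3 and 8.5), 10 and 8 (days 3 and 12.5 against virgin week 6), 0 (day 12.5 against 3), 3 (lactation day 7) and 1 (involution day 1 against lactation day 7).

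For pregnancy day 3 against virgin week 6 the count was 10 with the higher floor and 7 with array weights; for day 12.5 against virgin week 6, 2 with quantile normalization and 10 with weights; for day 12.5 against day 3, 0 with no floor and 2 with quantile normalization, with median scaling and with weights; for day 17.5 against day 12.5, 1 with no floor, 12 with the higher floor, 5 with no intensity trend and 15 with weights. The higher floor gave 5 for involution day 4 against lactation day 7 and 1 lower for involution day 1 against virgin week 12, where weights gave 6. The replication minus mitosis gap was -1.005, -0.91, -0.73 and -0.36 with no floor at virgin week 6, pregnancy days 3 and 12.5 and lactation day 7, and -0.51, -0.49 and -0.26 with the higher floor at the first 3.

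Leaving out 1 array at a time gave counts of 13 to 20 at virgin week 6, 13 to 17 for virgin week 10 against 6, 5 to 18, 10 to 17, 8 to 16, 16 to 24 and 9 to 17 at pregnancy days 2, 3, 8.5, 12.5 and 14.5, 2 to 4 and 0 to 3 for days 3 and 12.5 against virgin week 6, 0 to 1 for day 12.5 against day 3, 0 to 4 for day 17.5, 9 to 16, 7 to 16 and 2 to 5 at lactation days 1, 3 and 7, 1 to 4 lower at involution day 1, 2 to 6 and 5 to 8 for involution days 1 and 4 against lactation day 7, and 0 higher throughout at pregnancy day 1 and involution day 20, where 2 members were called lower without mouse C of involution day 20. The gaps ran from -0.87 to -0.70, -0.81 to -0.70, -0.61 to -0.46 and -0.53 to -0.47.

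The letters share only a name: same-letter deviations correlated at -0.155 to 0.24, with every pair over 0.1 in 0 of 19 comparisons. With the letter as a replicate block the counts were 21 at virgin week 6, 20 at pregnancy day 3, 26 at pregnancy day 12.5 and 6 at lactation day 7. Of 3798 values of the 211 single differences called, 3105 kept their direction and call, 691 lost the call and 2 turned; 356 of the losses came among 1266 fits without 1 array.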

Other observations

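The genes outside the 41 whose time course was most like theirs were Pclaf (Pearson's r = 0.97 over 18 time point means with the mean member profile), Ckap2 (0.96), Kif22 (0.938), Cdc25c (0.924), Nusap1 (0.924), Cenpk (0.908), Kif4 (0.895), Kpna2 (0.89), Pttg1 (0.888) and Dtl (0.877), given as a description over shared arrays. Pclaf encodes a partner of Pcna, and its mean signal was 52 at virgin week 6, 14.8 at week 10, 79.3 at pregnancy day 3, 86.5 at day 12.5 and 21.5 at lactation day 7. Ckap2, a spindle protein, gave 64.3, 10.7, 93.7, 88.4 and 13.5 at the same points.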
